A study of Mus musculus with 2 samples.

Results

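The microRNA family of Mir148 and Mir152 has, in the mouse, 3 genes, Mir148a, Mir148b and Mir152, chosen here by name among the 1973 microRNA genes of the count tables. All 3 were found, and all 3 had at least 10 counts in both libraries, as did 312 of the 1973 genes. MicroRNA sequencing was done on total RNA from whole livers of newborn B6NCrl mice at postnatal day 0. Replicate 2 was the liver of pup 2 and replicate 1 the liver of pup 1, both born to the same pregnant female and of unrecorded sex. The 2 livers form 1 untreated group, so there was no second age, tissue or treatment to compare with.

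MicroRNAs are short RNAs cut from a hairpin precursor and held by Argonaute proteins, and they lower the output of messenger RNAs that pair with their seed, the bases near the 5′ end. The members of this family share the seed of their 3p arm, the arm on the 3′ side of the hairpin, and can therefore bind the same sites. Dnmt1, which maintains DNA methylation, is a known target of the family. In liver, miR-148a is known to be abundant in hepatocytes, to take part in their maturation and to repress the cholesterol exporter Abca1. With 1 age in the data, a change of Mir148a with maturation could not be examined.

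The mature 3p arms are shown first because they define the family. They are RefSeq sequences for GRCm38.p6, the assembly also called mm10, written 5′ to 3′ with the seed, bases 2 to 8, in capitals.
miR-148a-3p: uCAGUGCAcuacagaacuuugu
miR-148b-3p: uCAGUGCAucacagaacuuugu
miR-152-3p: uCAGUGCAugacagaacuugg
All 3 seeds were CAGUGCA. Counted from base 1 at the 5′ end, miR-148b differed from miR-148a by C9U and U10C, and was the same at 20 of 22 bases. Over the 21 bases of miR-152, it differed from miR-148a by C9U, U10G and U20G and was the same at 18 of 21. The substitutions between miR-148b and miR-152 were C10G and U20G. Every difference between the 3p arms therefore lay outside the seed, and most lay just behind it.

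The whole hairpins are shown because the deposited counts are per hairpin. Capitals mark the 5p arm and, after it, the 3p arm.
Mir148a: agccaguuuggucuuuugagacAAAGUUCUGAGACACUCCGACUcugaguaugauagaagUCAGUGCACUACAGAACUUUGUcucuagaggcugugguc
Mir148b: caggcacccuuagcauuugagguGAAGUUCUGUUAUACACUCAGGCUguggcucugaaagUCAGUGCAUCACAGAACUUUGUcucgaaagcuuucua
Mir152: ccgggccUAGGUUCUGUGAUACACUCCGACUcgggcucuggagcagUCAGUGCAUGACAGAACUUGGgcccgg
The hairpins were less alike than the 3p arms. In a global alignment, 74.2% of the 97 bases of Mir148b matched Mir148a and 71.2% of the 73 bases of Mir152 did. The longest unbroken stretch shared by any pair of members was 15 bases, between Mir148a and Mir148b. None of the 3 hairpins shared a stretch of 20 bases with any of the 1004 other hairpins in the RefSeq table, on either strand. That table held no hairpin for some counted genes, such as Mir122 and Mir30b, and the rest of the genome was not searched. The search therefore does not show that reads of the members map to 1 locus. Reads with several mapping loci (24.7% of the reads of replicate 2 and 25.2% of those of replicate 1) were assigned to no gene. The 5p arms are the partner strands, and a count of the hairpin does not tell them from the 3p arms. Their seeds were AAGUUCU in miR-148a-5p and miR-148b-5p and AGGUUCU in miR-152-5p, and no other of the 1738 mature sequences in the table had either of these at bases 2 to 8.

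The genes lie on different chromosomes, and GENCODE M21 places 2 of them inside related genes. Mir148b (ENSMUSG00000065560.1) is at chr15:103285125-103285221 on the plus strand, in the first intron of all 4 Copz1 transcripts that span it. Mir152 (ENSMUSG00000065515.1) is at chr11:96850393-96850465 on the plus strand, in the first intron of all 3 Copz2 transcripts that span it. Copz1 and Copz2 encode the paralogous zeta subunits of the COPI coat, which carries vesicles within the Golgi and back to the endoplasmic reticulum. Both hairpins are on the strand of their host, Mir148b 12411 bases and Mir152 523 bases from the start of the host gene. Mir148a (ENSMUSG00000065505.1) is at chr6:51269812-51269910 on the minus strand and overlaps no other annotated gene. The nearest protein-coding genes are Nfe2l3, 162.8 kb to the right, and Npvf, 615.4 kb to the left.

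**Figure D1:**
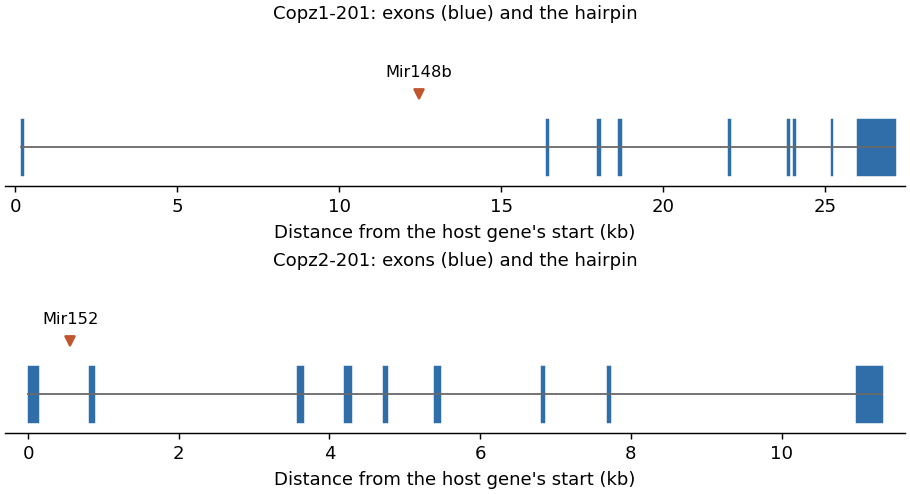
Exons of Copz1-201 (above) and Copz2-201 (below) as blue boxes on a line for the transcript, against the distance in kb from the start of the host gene, with a triangle at the microRNA hairpin. Mir148b and Mir152 each lie between the first and the second exon, 12411 and 523 bases from the start of the gene.

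The libraries held 4538427 (replicate 2) and 3422622 (replicate 1) counts on the strand of microRNA genes. Levels are counts per 1000000 of these (CPM), with exact Clopper-Pearson 95% intervals for each library. These intervals cover counting error only. They can be too narrow even for that, because PCR copies of 1 molecule are counted as separate reads. A read covers about 1 mature microRNA, so levels were not divided by hairpin length, and differences in ligation between sequences were not corrected. Mir122, the marker of hepatocytes, led both livers at 354939 and 342309 CPM in replicates 2 and 1. Among the other marker lists, summed levels were 69174 and 65978 CPM for endothelial Mir126a, 15784 and 14991 CPM for 5 mesenchymal genes and 8010 and 8723 CPM for 3 leukocyte genes. They were 6653 and 6841 CPM for 5 epithelial genes, 5150 and 5309 CPM for 3 erythroid genes and 2112 and 1947 CPM for 3 pancreatic genes. The 5 muscle genes in the table differed most, with a sum of 1008 CPM for replicate 2 against 136 CPM for replicate 1. Nearly all of this sum was Mir206. In whole tissue, fewer cells of a type and less RNA per cell cannot be told apart. With 2 pups, the smallest two-sided p of an exact sign-flip permutation is 0.5, so no p is given.

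Mir148a was the main member in both newborn livers, Mir148b came next and Mir152 was the lowest. Mir148a had 15003 counts or 3306 CPM in replicate 2 (95% interval 3253 to 3359), against 12644 counts or 3694 CPM in replicate 1 (3630 to 3759). Its mean was 3500 ± 275 CPM (SD, n = 2). It ranked 42 by mean level among all microRNA genes. Ranks rest on reads with 1 mapping locus, so genes whose reads map to several loci can rank too low. Mir148b had 1956 counts or 431 CPM in replicate 2 (412 to 451), against 1659 counts or 485 CPM in replicate 1 (462 to 509). Its mean was 458 ± 38.0 CPM (SD, n = 2), at rank 109. Mir152, the member inside Copz2, had 916 counts or 202 CPM in replicate 2 (189 to 215), against 670 counts or 196 CPM in replicate 1 (181 to 211). Its mean was 199 ± 4.30 CPM (SD, n = 2), at rank 149. The values of the 3 members did not overlap in either liver, and each gap was larger than the summed SDs. In the counts read as the opposite strand, Mir148a had 1 count in replicate 2 and 0 in replicate 1, and the other members had 0 in both.

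**Figure D2:**
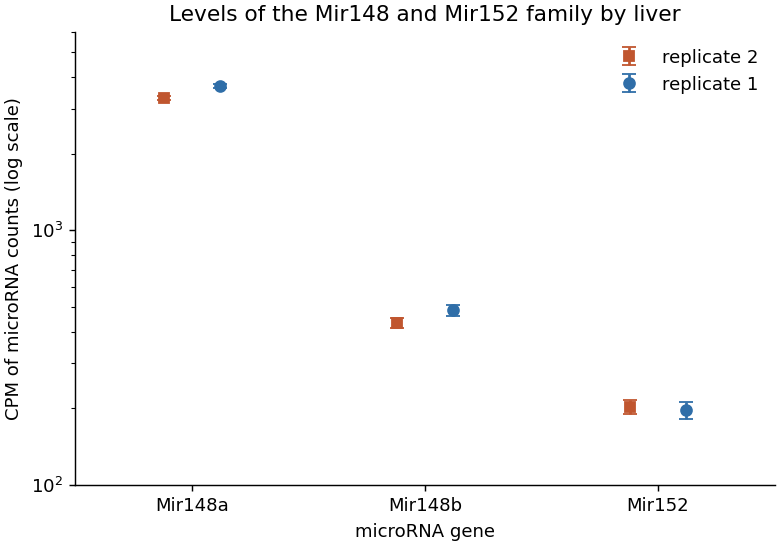
CPM of Mir148a, Mir148b and Mir152 on a log axis in replicate 2 (squares) and replicate 1 (circles), with exact 95% counting intervals. Mir148a lies at 3306 and 3694 CPM, Mir148b at 431 and 485 CPM and Mir152 at 202 and 196 CPM, with no overlap between genes.

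Mir148a exceeded Mir148b by nearly the same factor in both livers, while its ratio to Mir152 varied more. Mir148a counts were 7.67 times those of Mir148b in replicate 2 (95% interval 7.32 to 8.04) and 7.62 times in replicate 1 (7.24 to 8.03). The mean ratio was 7.65 ± 0.0345 (SD, n = 2). Mir148a counts were 16.4 times those of Mir152 in replicate 2 (15.3 to 17.5) and 18.9 times in replicate 1 (17.5 to 20.4), a mean of 17.6 ± 1.76 (SD, n = 2). The intervals of the 2 livers touched at their ends. Mir148b stood above Mir152 by 2.14 times in replicate 2 (1.97 to 2.31) and 2.48 times in replicate 1 (2.26 to 2.71), so the order of the 2 intronic members was also the same in both livers.

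**Figure D3:**
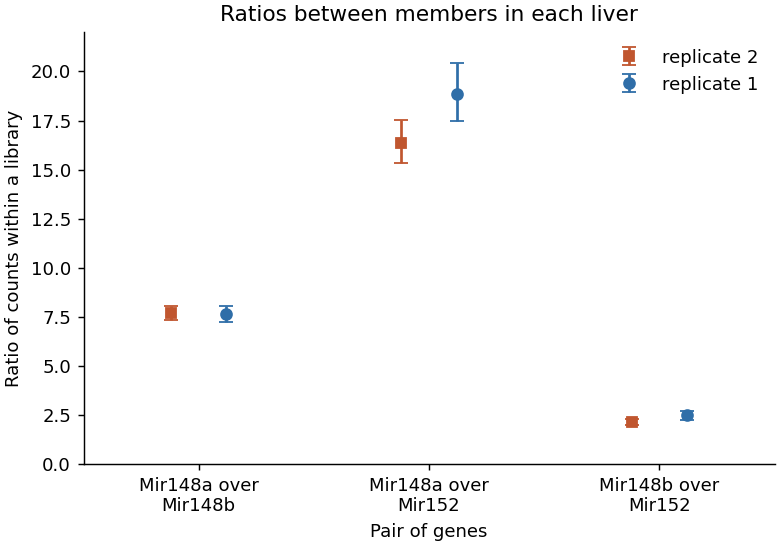
Ratio of counts within a library for each pair of members, in replicate 2 (squares) and replicate 1 (circles), with exact 95% counting intervals on a linear axis from 0. Mir148a over Mir148b is 7.67 and 7.62, while Mir148a over Mir152 is 16.4 and 18.9.

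Together the family held 0.394% of microRNA counts in replicate 2 (95% interval 0.388% to 0.400%) and 0.437% in replicate 1 (0.431% to 0.445%), a mean of 0.416% ± 0.0308 (SD, n = 2). With Mir122 left out of the library total, the mean share was 0.638% and the mean level of Mir148a 5371 CPM, that of Mir148b 703 CPM and that of Mir152 305 CPM. Within the family, Mir148a made up 83.9% of counts in replicate 2 and 84.4% in replicate 1. Mir148b made up 10.9% and 11.1%, and Mir152 made up 5.12% (4.81% to 5.46%) and 4.47% (4.15% to 4.82%) in replicates 2 and 1. Counts of hairpins that carry the seed CAGUGCA thus came mostly from the gene outside Copz1 and Copz2.

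The same 7 bases also begin the mature 3p arms of the family of Mir130 and Mir301, shifted by 1 position. Among the 1738 mature sequences in the RefSeq table, 3 had CAGUGCA at bases 2 to 8, all from the Mir148 and Mir152 family, 7 had it at bases 1 to 7, and 0 had it at bases 3 to 9. The 3 shifted sequences whose genes had at least 10 counts in both livers follow, with the 7 shared bases in capitals.
miR-130a-3p: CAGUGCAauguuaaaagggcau
miR-130b-3p: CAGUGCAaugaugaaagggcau
miR-301a-3p: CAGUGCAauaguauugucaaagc
Because the seed is read from base 2, these sequences have a different seed, AGUGCAA, which overlaps CAGUGCA in the bases AGUGCA. Whether the 2 families share target sites was not tested. Mir130a, at 10720 and 12555 CPM in replicates 2 and 1, stood above Mir148a by 3.24 and 3.40 times. Mir130b had 1302 and 1459 CPM, and Mir301, the gene of miR-301a, had 444 and 515 CPM. Mir148b had 431 and 485 CPM in the same livers and was not separated from Mir301. Mir130c, Mir6341 and Mir6389 had 0 counts in both livers, which allows up to 0.661 CPM (replicate 2) and 0.877 CPM (replicate 1) in uniquely mapped reads. Mir148a, Mir148b and Mir152 summed to 0.309 ± 0.0105 times the 6 shifted genes in the table (SD, n = 2). In both sets of genes 1 gene led, and Mir130a made up 86.2% ± 0.295 of the shifted sum (SD, n = 2). The RefSeq table held no hairpin for some counted genes, so other genes with the shifted bases can be missing from this sum.

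Among microRNAs known to be enriched in liver, Mir148a came after Mir122 and Mir192 in counts, far below Mir122. Of the 10 genes listed, 9 had an entry in the table and 8 had at least 10 counts in both livers. Mir148a reached 0.0101 ± 0.00105 times the level of Mir122 and 0.400 ± 0.0260 times that of Mir192, which acts in epithelia of gut, kidney and liver (SD, n = 2 each). It stood above Mir194-2, the neighbour of Mir192, by 1.28 ± 0.0380 times, with values of 3306 and 3694 CPM for Mir148a against 2524 and 2941 CPM for Mir194-2 that did not overlap. Mir194-2 shares a stretch of 20 bases with 1 other hairpin, so its count is uncertain and can be too low. Whether Mir148a stands above Mir194-2 in level is therefore not settled. The counts of the remaining liver-enriched genes were far lower, from 78.8 ± 11.0 CPM for Mir802 to 9.67 ± 1.21 CPM for Mir215, and Mir365-1 had 1 and 0 counts. Reads with several mapping loci were assigned to no gene, so these low counts do not by themselves show low levels. Mir148b and Mir152 both exceeded Mir802 in each liver.

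In the order of all genes, no member was separated from its neighbours. Mir148a lay between Mir423, at 3560 ± 69.8 CPM, and Mir652, at 3489 ± 166 CPM, and the values of 8 genes were not separated from it. Mir148b lay between Mir872, at 460 ± 43.3 CPM, and Mir186, at 455 ± 0.0386 CPM, with 18 genes not separated. Mir152 lay between Mir574, at 200.4 ± 2.90 CPM, and Mir5099, at 196 ± 5.45 CPM, with 7 genes not separated. The genes closest in level over both livers were found by the larger of the differences in log2(CPM + 1) in the 2 libraries. For Mir148a these were Mir451a, Mir423 and Mir10a, each within 0.09. For Mir148b they were Mir296, Mir210 and Mir301, each within 0.09, and for Mir152 they were Mir574, Mir500 and Mir30b, each within 0.07. A likeness over 2 libraries of 1 tissue describes levels only.

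**Figure D4:**
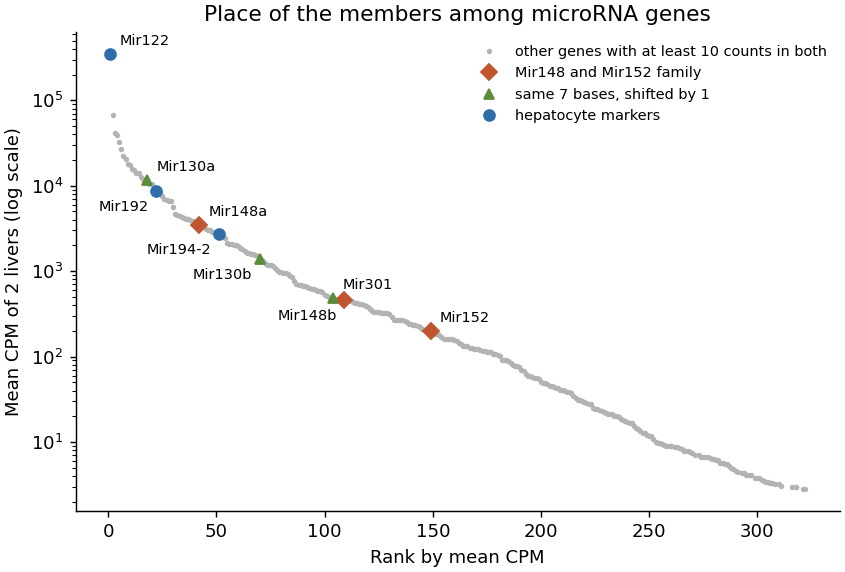
Mean CPM of the 2 livers on a log axis against rank for genes that reached 10 counts in each liver, with Mir148a, Mir148b and Mir152 as diamonds, genes with the same 7 bases shifted by 1 as triangles, and hepatocyte markers as circles. Mir148a sits at rank 42, Mir148b at rank 109 and Mir152 at rank 149.

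Between the pups, the family differed little. The 2 genes Mir148a and Mir148b were lower in replicate 2 by nearly the same factor, and Mir152 was nearly level. For Mir148a the log2 ratio of replicate 2 over replicate 1 was -0.16 (exact 95% interval -0.19 to -0.13). For Mir148b it was -0.17 (-0.26 to -0.07), and for Mir152 it was 0.04 (-0.10 to 0.19). The intervals of Mir148a and Mir148b excluded 0, while the interval of Mir152 included 0. With a single library from each pup, a difference between pups cannot be set against a spread within pups. Of the members, 0 of 3 lay past a log2 ratio of 0.32 either way, against 10.9% of the 221 genes that reached 100 counts in each liver (4.98% lower and 5.88% higher in replicate 2). With 3 members, a count of 0 is close to that share and does not set the family apart. Of these 221 genes, 135 differed less between the pups than Mir148a, 138 less than Mir148b and 40 less than Mir152. The median log2 ratio was -0.16 over the 3 members and -0.0015 over the 221 genes. Among the shifted genes, the log2 ratio was -0.23 for Mir130a, -0.16 for Mir130b and -0.22 for Mir301. Summed marker levels in the same pups had log2 ratios of 0.05 for hepatocyte genes, 0.07 for endothelial Mir126a, -0.12 for 3 leukocyte genes, -0.04 for 3 erythroid genes and 0.07 for 5 mesenchymal genes. It was -0.04 for 5 epithelial genes, 0.12 for 3 pancreatic genes and 2.89 for the 5 muscle genes in the table, of which 3 were at 0 in both livers. Nearly all of the muscle sum was Mir206, at 1004 and 136 CPM in replicates 2 and 1. Reads with several mapping loci were assigned to no gene, so a count of 0 does not show absence. Members of a list could differ in sign. Within the hepatocyte list, Mir122 made up most of the sum at 0.05, while Mir192 was at -0.03 and Mir194-2 at -0.22. Among erythroid genes, the log2 ratio was -0.23 for Mir451a, 0.38 for Mir144 and -0.08 for Mir486. Among leukocyte genes, it was -0.13 for Mir223, 0.44 for Mir150 and -0.06 for Mir155. The sums therefore do not show how a cell type as a whole differed. The part of these cell types in the family's differences was not tested.

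**Figure D5:**
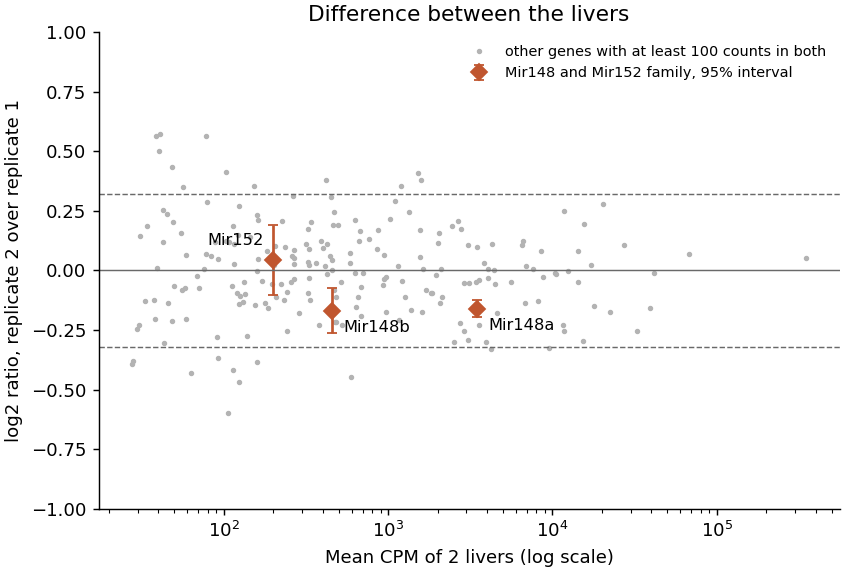
The log2 ratio of replicate 2 over replicate 1 against mean CPM on a log axis for genes with at least 100 counts in both livers, with the family as diamonds with exact 95% intervals and dashed lines at a log2 ratio of 0.32 either way. Mir148a (-0.16) and Mir148b (-0.17) lie below 0 and Mir152 (0.04) above it, all inside the dashed lines, and Mir206 at 2.88 lies outside the plotted range.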

How the data were processed

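The authors deposited 1 table of raw read counts for each liver, made on mm10 with the M4 release of GENCODE, as a deposited text file states. The aligner, the counting program and trimming were not given in the sources used here. Columns without a header were read from their values as counts without strand, on the gene strand (used here) and on the opposite strand. Each column with its unassigned reads sums to the same uniquely mapped total, which does not tell which strand is which. For Mir148a in replicate 2, the column read as the gene strand held 15003 counts and the column read as the opposite strand held 1. Reads not on the strand of a microRNA gene, 9.92% of uniquely mapped reads in replicate 2 and 8.87% in replicate 1, stayed out of library totals. They include reads on the opposite strand of microRNA genes. Symbols, found for 1894 of 1973 genes, and host genes came from GENCODE M21, and sequences from RefSeq on GRCm38.p6. All 3 members matched with identical coordinates. The 79 genes without a symbol held 0 counts.

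CPM used the gene-strand total. Means and SDs are over 2 pups. Ratios have exact intervals conditional on the summed counts, and the limit for 0 counts is 3 counts of the total. Genes were called separated where their values in the pups did not overlap and their means were further apart than the summed SDs. A chi-square of 49.9 per degree of freedom over 390 genes showed that the libraries were not 1 library deposited under another name. No test between groups was possible. In simulated data with counting error only, the 95% intervals of the ratio of replicate 2 over replicate 1 held the true ratio in 94.6% to 96.9% of draws, depending on the fold simulated. The draws followed the model behind the intervals, so this checks the calculation only and not how the intervals hold in real libraries. The named genes were the members, their neighbours in rank, the 3 genes of most like level, the liver-enriched and marker lists, and genes holding the family seed in a mature sequence. Members and lists were chosen with earlier results of these data known. Alternatives were unstranded counts, TMM (edgeR 4.0.16), DESeq2 1.42.0 size factors, other library totals and each pup alone. Python 3.11.15, scipy 1.17.1 and Biopython 1.88 were used.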

Additional observations from a re-analysis of the deposited data

How the results depend on the processing

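No paired analysis was possible because the series has 1 group. Of 42 values recomputed with both pups under an alternative, 33 moved by less than the spread between the pups (for log2 ratios, less than the half-width of the counting interval) and 9 moved by more. Without Mir122 in the library total, the family share was 0.638% and the levels were 5371 CPM for Mir148a, 703 CPM for Mir148b and 305 CPM for Mir152. With the total of all uniquely mapped reads, the share was 0.377% and the levels were 3172, 415 and 180.1 CPM for Mir148a, Mir148b and Mir152. With counts made without regard to strand, Mir152 stood at 189.7 CPM. These follow from the totals, which multiply all members alike within a library, so ratios between members do not depend on them. Each pup alone, which with 2 pups lies within 1 SD of their mean by construction, gave 7.62 to 7.67 for Mir148a over Mir148b, 16.4 to 18.9 for Mir148a over Mir152 and 0.394% to 0.437% for the family share. The log2 ratios between the pups ranged from -0.18 to -0.13 for Mir148a, from -0.19 to -0.14 for Mir148b and from 0.03 to 0.07 for Mir152 over 6 alternatives, and 0 of them passed a size of 0.32. With 2 pups of 1 litter, spread between litters was not measured, and the arms of a hairpin were not told apart.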
